A study of Rattus norvegicus with 250 samples.

Results

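Bdnf (ENSRNOG00000047466) and Ntrk2 (ENSRNOG00000018839) were followed across the hippocampal RNA-Seq libraries of F2 rats as 2 of the 32883 gene rows of the count table. The rows were taken by their identifiers, with no threshold on a measured value. The table does not pair identifiers with symbols, so the names are those given with the choice of the rows. Brain-derived neurotrophic factor, the product of Bdnf, is a secreted growth factor that neurons make and release in response to activity, and its proform is cut to the mature ligand by proprotein convertases. It binds TrkB, the receptor tyrosine kinase that Ntrk2 encodes, which signals through the MAP kinase, PI3 kinase and phospholipase C pathways. In the hippocampus this pair is best known for its role in synaptic plasticity and memory. Neurons carry the full-length receptor, and astrocytes carry truncated forms that lack the kinase domain, which gene-level counts do not separate.

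The rats came from a cross of bred High Responders and bred Low Responders, lines selected for high or low exploration of an unfamiliar arena. The F0 parents founded 12 families, and F1 offspring were bred to give the F2 generation, so every rat carried a mixture of both lines and no group was genetically uniform. Locomotion in an unfamiliar arena (LocoScore, in beam breaks) and behavior on the elevated plus maze (EPM) were recorded for every rat. Pavlovian conditioned approach (PavCA), repeated sessions in which a lever signals food, was given to a subset. Of 250 libraries, 245 had no failed-quality label and were analyzed, from 122 males and 123 females aged 113 to 132 days, each a separate animal. These included 208 rats with a PavCA score and 37 without one, called trained and untrained here. The trained include 3 females with a score for day 6 only and no PavCA Index. Counting only rats with an Index, as the study's own number of trained rats does, gives a smaller trained group. Dorsal and ventral hippocampal punches of a rat were combined, from the left side in 123 rats and the right side in 122.

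The libraries held between 17916830 and 31494272 counted reads (median 21613379). Every untrained male was sequenced in the third of 3 sequencing batches, which held 30 of the 37 untrained rats, and families 11 and 12 supplied 23 of the 37. The labelled tissue was checked against neuronal markers with a known identifier. Slc17a7, the vesicular glutamate transporter of excitatory neurons, lay between 547.3 and 2476.9 CPM (counts scaled to a common library size), and the neuronal nuclear gene Rbfox3 between 44.2 and 223.1 CPM, so neither was absent from any library.

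Bdnf was counted with 963 to 2976 reads per library and Ntrk2 with 2639 to 18125, so neither gene was limited by depth. After normalization Bdnf ranged from 50.4 to 121.6 CPM with a median of 74.9, which is a log2 CPM of 6.24 ± 0.24 (SD, n = 245). Ntrk2 ranged more widely, from 126.0 to 721.1 CPM with a median of 347.2, or a log2 CPM of 8.43 ± 0.56 (SD, n = 245). Levels of the genes were not compared with each other because the table gives no gene lengths. In pooled tissue, fewer cells that express a gene and less of its RNA per cell cannot be told apart. Sex, rRNA share, intergenic share (the percentage of aligned bases outside annotated genes), dissector, PavCA experience and sequencing batch were then removed by regression. LocoScore was not removed. The SD of Bdnf fell to 0.22 and that of Ntrk2 to 0.22. The covariates therefore left 78.7% of the variance of Bdnf and 15.2% of that of Ntrk2.

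RefSeq places the transcription starts of Bdnf on the plus strand of chromosome 3 in the GRCr8 assembly, with 6 promoter windows of 250 bases before to 50 bases after a start. The gene-level counts do not separate the starts, and whether the counted gene model holds each of them was not checked. Activity-dependent transcription of Bdnf is known to run in part through cAMP response elements, so the 6 letters TGACGT were searched on both strands (ACGTCA on the other). They were present in 1 of the 6 Bdnf windows and in 7.94% of the 33469 rat promoter windows. The match began 36 bases before a start, and it is shown because it is the only one, with the matched letters in capitals and the plus strand at chr3:116637810-116637839. No window for Ntrk2 was used here.
Bdnf: atatgacagctcACGTCAaggcagcgtgga

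The first question was whether either gene tracked the behaviors in which the founding lines differ. Neither gene was associated with LocoScore, EPM distance, time immobile, time in the open arms or PavCA Index. Across these 5 behaviors and 2 genes, no slope passed a false discovery rate (FDR) of 0.10 over the 19448 genes tested or had an unadjusted p under 0.05. The background was equally sparse. By limma-voom 0.0103% of genes were called for LocoScore, 0.00514% for PavCA Index and 0% for each EPM measure, while an unadjusted p under 0.05 was reached by 5.23% for LocoScore, 3.74% for EPM distance, 4.27% for time immobile, 3.9% for open arm time and 3.7% for PavCA Index. edgeR and DESeq2 called neither gene for any of the 5 behaviors. Of the listed pathway and marker genes, 0 were called for these behaviors by limma-voom. For open arm time, 4 of 7 activity-regulated genes had an unadjusted p under 0.05, each with a positive slope, among them Npas4 (0.12 ± 0.045 log2 per 10 percentage points) and Ppp1r15a (0.023 ± 0.0085), with limma-voom adjusted p-values of 1.

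For each additional 100 beam breaks of LocoScore, over a range of 40 to 1461, the level of Bdnf differed by 0.0045 ± 0.0048 log2 (SE, n = 245, p = 0.35, limma-voom adjusted p = 0.998). For Ntrk2 the slope was 0.0031 ± 0.0048 (p = 0.516, limma-voom adjusted p = 0.998). The 95% intervals ran from -0.0049 to 0.0139 for Bdnf and from -0.0063 to 0.0125 for Ntrk2. The lateral and rearing parts of LocoScore gave slopes of 0.0054 ± 0.012 and 0.0090 ± 0.0075 for Bdnf, and of 0.0047 ± 0.012 and 0.0059 ± 0.0074 for Ntrk2, with limma-voom adjusted p-values of 0.999 and above. For these parts 0.0154% and 0.0103% of genes were called, and 5.5% and 5.16% had an unadjusted p under 0.05.

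On the EPM, an additional 100 cm of distance went with -0.00091 ± 0.0034 log2 of Bdnf and -0.0012 ± 0.0034 of Ntrk2 (n = 244). An additional 10 s of immobility went with -0.00092 ± 0.0064 of Bdnf and -0.0080 ± 0.0063 of Ntrk2 (p = 0.206, limma-voom adjusted p = 0.99). An additional 10 percentage points of time in the open arms went with -0.0011 ± 0.014 of Bdnf and -0.0010 ± 0.014 of Ntrk2. Each of these slopes was smaller than 2 times its SE.

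Among 205 rats with a PavCA Index, which runs toward 1 in rats that approach the lever (sign-trackers) and toward -1 in rats that approach the food cup (goal-trackers), the slope per index unit was 0.029 ± 0.030 log2 for Bdnf (p = 0.341) and 0.014 ± 0.027 for Ntrk2 (p = 0.611), with limma-voom adjusted p-values of 1. By class, Bdnf had its lowest, median and highest log2 CPM at 5.67, 6.13 and 6.55 in 38 goal-trackers. In 80 sign-trackers they were 5.66, 6.17 and 6.58, and in 87 intermediate rats 5.66, 6.25 and 6.93. The ranges of the classes overlapped almost entirely. Sign-trackers minus goal-trackers was 0.060 ± 0.045 for Bdnf (p = 0.187) and 0.044 ± 0.040 for Ntrk2 (p = 0.282), with limma-voom adjusted p-values of 0.999 for both and 0% of genes called.

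The slopes were also compared between the sexes through a product of sex and behavior. For LocoScore, the slope of Bdnf was lower in females than in males by 0.023 log2 per 100 beam breaks (-0.023 ± 0.0095, p = 0.0148, limma-voom adjusted p = 0.189). That of Ntrk2 was higher in females by 0.022 (0.022 ± 0.0096, p = 0.0202, limma-voom adjusted p = 0.204). Within males the slopes were 0.014 ± 0.0080 for Bdnf and -0.0089 ± 0.0073 for Ntrk2, and within females -0.0034 ± 0.0063 and 0.010 ± 0.0053. Neither difference passed the FDR. An unadjusted p under 0.05 was reached by 18.5% of all genes in this comparison and 0.329% were called. For PavCA Index the difference was -0.13 ± 0.059 for Bdnf (p = 0.0289, limma-voom adjusted p = 0.581) and 0.060 ± 0.053 for Ntrk2, with 0% of genes called.

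The next comparison was trained against untrained rats. Bdnf was lower in trained rats, and Ntrk2 did not differ beyond its error. The Bdnf difference was smaller and not called with date of death in the model, as given below. In the 37 untrained rats Bdnf had its lowest, median and highest log2 CPM at 5.76, 6.48 and 6.82, and in the 208 trained rats at 5.66, 6.20 and 6.93. The ranges overlapped almost fully while the medians differed. With the covariates in the model, Bdnf was lower in trained than in untrained rats by 0.14 log2 (-0.14 ± 0.049, p = 0.00432, limma-voom adjusted p = 0.0639). This is a difference of -9.37% (95% interval -15.2 to -3.10%). At this threshold 9.19% of all genes were called, 3.85% as lower and 5.35% as higher in trained rats, so Bdnf was 1 of 748 genes called lower. Ntrk2 ran from 7.32 through a median of 8.35 to 9.15 in untrained rats and from 6.98 through 8.48 to 9.49 in trained rats, and its modelled difference was 0.015 ± 0.050 (p = 0.759, limma-voom adjusted p = 0.912).

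**Figure D1:**
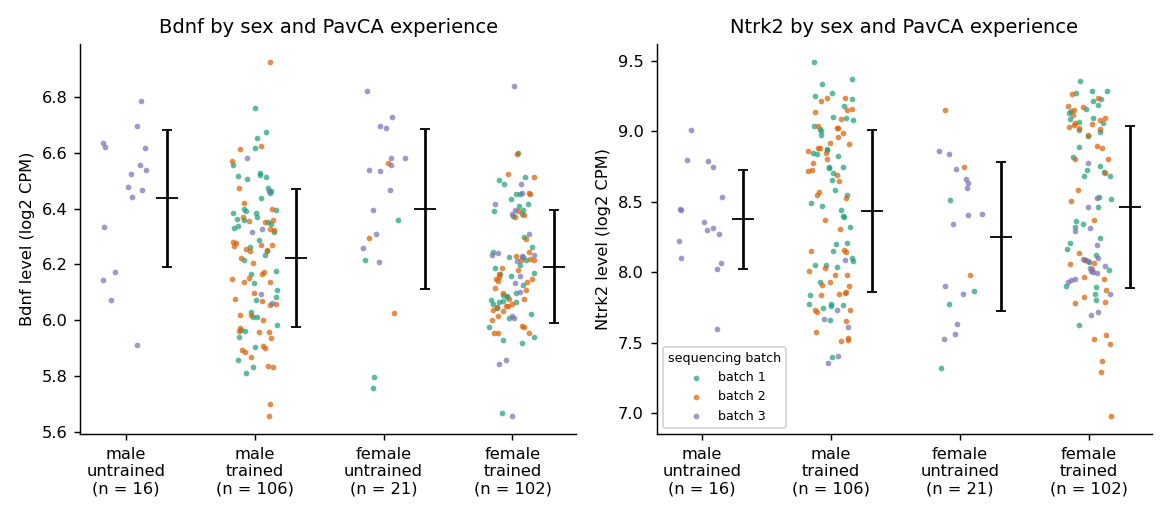
Level of Bdnf (left) and Ntrk2 (right) in log2 CPM, no covariate removed, in each rat by sex and PavCA experience, colored by sequencing batch. The black marks give the mean and SD of each group. Untrained males and females have higher mean Bdnf (6.44 and 6.40) than trained males and females (6.22 and 6.19), with overlapping ranges, and all 16 untrained males are in batch 3.

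Modelled in each sex alone, the Bdnf difference was -0.17 in females and -0.12 in males and the call was lost (limma-voom adjusted p = 0.229 and 0.518). It was also lost with dissection day added (-0.13, limma-voom adjusted p = 0.223), with DESeq2 size factors (-0.13, adjusted p = 0.115), without the RNA shares (-0.15, adjusted p = 0.231), and when any 1 of 6 of the 12 families was left out (families 1, 4, 6, 8, 9 and 10, -0.14 to -0.12, adjusted p up to 0.219). Before any modelling its direction was the same in both sexes. The mean log2 CPM of Bdnf was 6.44 ± 0.24 (SD, n = 16) in untrained males and 6.22 ± 0.25 (n = 106) in trained males. In females it was 6.40 ± 0.29 (n = 21) and 6.19 ± 0.20 (n = 102). The product of sex and PavCA experience was -0.0054 ± 0.081 for Bdnf (p = 0.947, limma-voom adjusted p = 0.988) and 0.067 ± 0.082 for Ntrk2 (p = 0.416), in a comparison where 0.293% of genes were called. Within sequencing batch 3, which held 26 trained and 30 untrained rats, Bdnf was lower in trained rats by 0.25 log2 (-0.25 ± 0.065, limma-voom adjusted p = 0.0309). In batch 1, with 4 untrained rats, the difference was 0.27 ± 0.12 in the other direction (limma-voom adjusted p = 0.49), and in batch 2, with 3 untrained rats, it was -0.10 ± 0.13 (adjusted p = 0.898).

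Training was tied to the date of death, because only 3 of 9 dates held rats of both kinds. On those 3 dates, with 15 untrained and 108 trained rats, the Bdnf difference was -0.082 ± 0.066 log2 (p = 0.214, limma-voom adjusted p = 0.506). With date of death in place of sex in all 245 rats it was -0.063 ± 0.062 (limma-voom adjusted p = 0.564). On the date with the most untrained females, the lowest, median and highest Bdnf values were 5.76, 6.36 and 6.82 in 9 untrained rats and 5.66, 6.15 and 6.84 in 48 trained rats. The other shared female date had 3 untrained rats at 5.80, 6.03 and 6.56, within the range of 5.84 to 6.59 of its 54 trained rats except for the lowest. The shared male date had 3 untrained rats at 5.91, 6.07 and 6.33 beside 6 trained rats between 6.06 and 6.35. The untrained mean was the lower one on both of these dates (6.13 against 6.20 and 6.11 against 6.22). On the dates without both kinds, training and date cannot be told apart. The definition of training mattered too. With the 3 females that lack a PavCA Index counted as untrained, the Bdnf difference was -0.11 ± 0.046 and was not called (limma-voom adjusted p = 0.134), and with them left out it was -0.14 ± 0.049 (limma-voom adjusted p = 0.0651). Leaving out female 117 or female 47, both untrained, gave limma-voom adjusted p-values of 0.106 and 0.108.

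**Figure D2:**
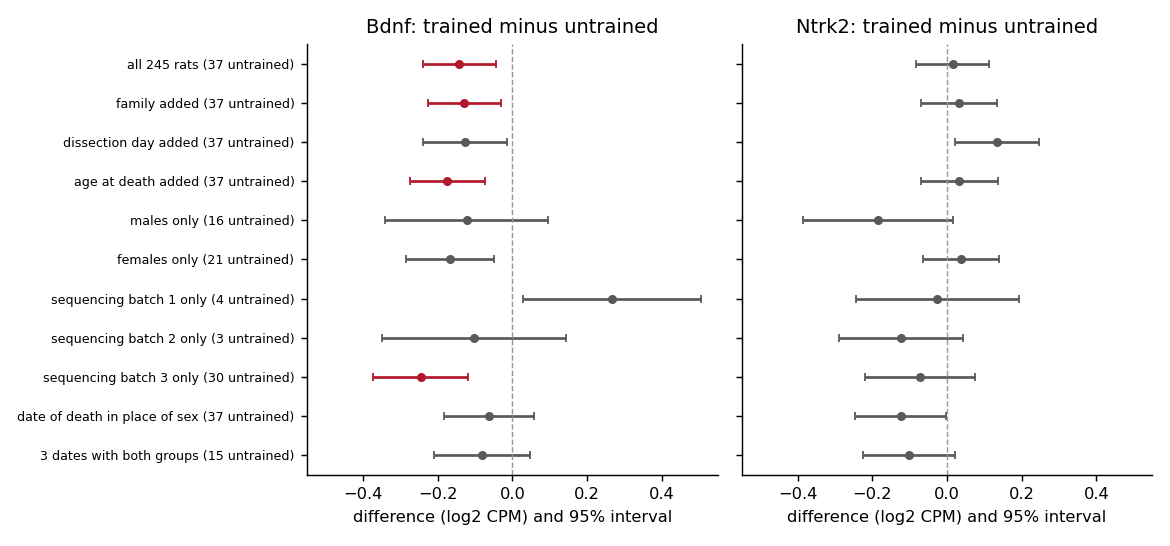
Trained minus untrained difference in log2 CPM with its 95% interval for Bdnf (left) and Ntrk2 (right), in the model of all 245 rats and in 10 alternative models or subsets, each with its number of untrained rats. Red marks pass an FDR of 0.10. Bdnf is at -0.14 in all rats, -0.25 in batch 3 and -0.063 with date of death in the model, and no Ntrk2 estimate is red.

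Ntrk2 showed no such call in any of these subsets. Its difference was 0.13 log2 or less in size on the shared dates, in each batch and with date of death in the model (-0.10, -0.026, -0.12, -0.072 and -0.12, respectively) and -0.18 ± 0.10 in males alone. On the shared male date its 3 untrained rats, all of family 12, lay at 8.44, 8.75 and 8.79. All were above the 6 trained rats, which ran from 7.35 to 8.37. With covariates removed they lay at 8.80, 8.95 and 9.23, beside 7.87 to 8.45 in the trained rats. The median intergenic share on that date was 12.24% in untrained and 11.35% in trained rats. Over all rats the intergenic share, to which a later comparison returns, had a median of 12.6% in untrained and 13.5% in trained rats.

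The other genes of the pathway were described from lists of known members, of which only those with an identifier in the sources used here could be read. For training, these genes and the markers were read from the model of all rats alone. They were not refitted with date of death, to which training was tied, or within subsets. Of 4 neurotrophin receptors tested (Ntrk2, the NT-3 receptor Ntrk3, and the sorting receptors Sorcs1 and Sorcs3), 0 were called for training, with a median difference of 0.014 log2 beside 0.0063 over all genes. Of 4 convertases that can process proneurotrophins (Furin, Pcsk1, Pcsk5 and Pcsk6), 0 were called (median -0.013). Of 9 signaling genes downstream of Trk receptors, 1 was higher and 2 were lower in trained rats (median 0.0041), beside 9.19% of all genes called. Sh2b1, an adaptor that binds activated receptors, rose by 0.063 ± 0.021. The kinase genes Akt2 (-0.16 ± 0.038) and Mapk3 (-0.10 ± 0.027), which encode AKT2 and ERK1, fell.

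Of 7 activity-regulated genes, 3 were called lower in trained rats and 0 higher, with a median of -0.16 log2, beside 3.85% of all genes called lower. Npas4, a transcription factor induced by neuronal activity, fell (-0.59 ± 0.16, limma-voom adjusted p = 0.0148). The eIF2 phosphatase subunit gene Ppp1r15a fell (-0.16 ± 0.032), and so did the ERK phosphatase gene Dusp5 (-0.23 ± 0.078). Fosb, Homer1, Plk2 and Sgk1 had differences between -0.18 and -0.053 that did not pass. Bdnf is itself activity-regulated and moved in the same direction as these 3. Over rats with covariates removed, however, its r was -0.132 with Npas4, -0.0551 with Ppp1r15a and 0.0390 with Dusp5. For the product of sex and PavCA experience, 0 of the 7 were called and 3 had an unadjusted p under 0.05, beside 10.7% of all genes. Whether the falls share a cause, or remain with date of death in the model, was not tested. Only genes in the readable part of the study's tables have a symbol here, so these counts cover part of each list.

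Some cell type markers were called for training, beside 9.19% of all genes. Of 3 excitatory neuron markers only Slc17a7 was called, and it fell in the model (-0.16 ± 0.037). Without covariates the direction was the other, since the summed level of the 3 had a median of 1832 CPM (622.0 to 2781) in trained and 1590 CPM (799.3 to 2529) in untrained rats. Among 6 astrocyte markers, Slc7a10 (0.15 ± 0.035) and Ttyh1 (0.073 ± 0.027) rose, with summed medians of 3064 CPM (2342 to 3819) in trained and 3067 CPM (2641 to 3451) in untrained rats. None of the 4 oligodendrocyte, 3 microglia, 2 endothelial and mural, 1 interneuron, 1 choroid plexus or 4 blood markers tested was called. Their part in the Bdnf difference was not tested.

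Both genes varied with the intergenic share, in opposite directions. The intergenic share ran from 9.91 to 17.3% (median 13.3%). Ntrk2 rose with it by 0.26 log2 per percentage point (0.26 ± 0.014, limma-voom adjusted p = 1.39e-45), which is 19.4% per point (95% interval 17.1 to 21.7%). Bdnf was lower by 0.069 per point (-0.069 ± 0.014, limma-voom adjusted p = 4.68e-06), a change of -4.65% (-6.48 to -2.79%). The background was high, since 77.3% of genes were called, 38.9% higher and 38.4% lower, and 75.3% had an unadjusted p under 0.05, so being called was not particular to either gene. By p-value Ntrk2 ranked 1912 of 19448 genes and Bdnf 10675.

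In the 62 rats with the lowest intergenic share (9.91 to 11.9%), Ntrk2 had its lowest, median and highest levels at 126.0, 219.1 and 369.0 CPM. In the 61 rats with the highest share (14.7 to 17.3%) they were 338.3, 543.7 and 721.1 CPM, so these groups barely overlapped. Bdnf had 54.0, 81.8 and 114.4 CPM in the former and 50.5, 68.5 and 102.1 CPM in the latter, which overlapped through most of their range. Without any covariate, Ntrk2 correlated with the intergenic share at Pearson's r = 0.905 and Spearman's rho = 0.906 (245 rats, permutation p = 1e-05 for each, the smallest that 100000 permutations give, adjusted 1e-05 over 18 relations). The r was 0.906 without the 2 rats farthest from the median share and 0.891, 0.949 and 0.794 within batches 1, 2 and 3. For Bdnf it was r = -0.308 and rho = -0.311 (permutation p = 1e-05 for each, adjusted 1e-05), -0.301 without those 2 rats, and -0.236, -0.422 and 0.124 within the batches. In batch 3 the sign for Bdnf was positive without covariates, while its modelled slope there was -0.22 ± 0.042. The modelled slope was -0.069 ± 0.026 in batch 2 (limma-voom adjusted p = 0.0158) and was not called in batch 1 (-0.027 ± 0.023, limma-voom adjusted p = 0.308).

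**Figure D3:**
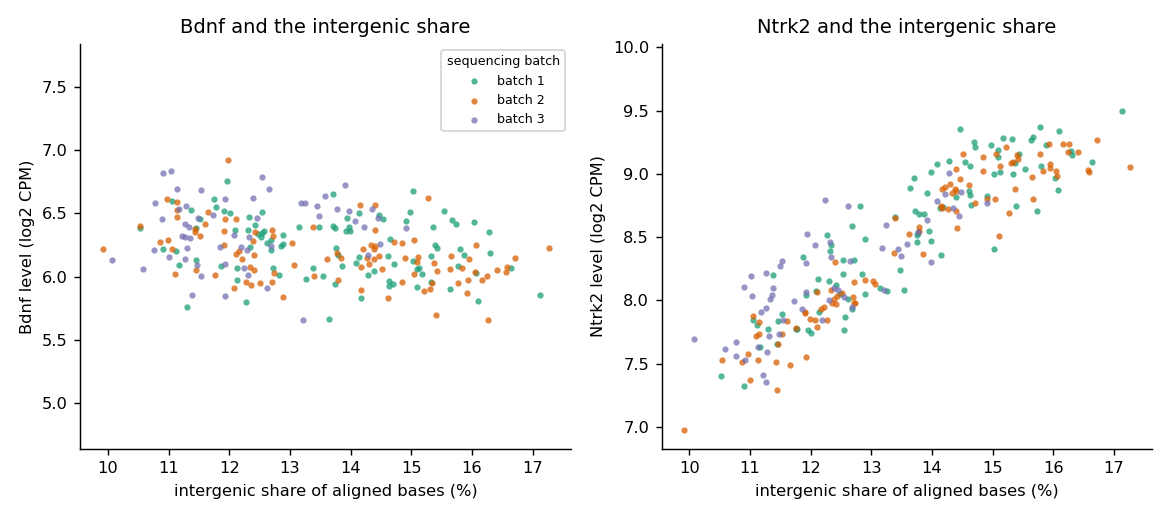
Level of Bdnf (left) and Ntrk2 (right) in log2 CPM against the intergenic share of aligned bases (%) in each of 245 rats, colored by sequencing batch, on y axes of equal span. Ntrk2 climbs along the share in all 3 batches (r = 0.905 over all rats) and Bdnf declines weakly (r = -0.308).

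The rRNA share, which ran from 0.48 to 2.88%, gave a second contrast. With the intergenic share also in the model, Ntrk2 was lower by 0.23 log2 per percentage point of rRNA (-0.23 ± 0.059, limma-voom adjusted p = 0.000307) and Bdnf by 0.13 (-0.13 ± 0.059, limma-voom adjusted p = 0.0525), where 68.8% of genes were called, 32.8% higher and 36% lower, and 66.8% had an unadjusted p under 0.05. Alone, the rRNA share correlated with Ntrk2 at r = -0.733 and rho = -0.80, and with r = -0.74 without the 2 rats farthest from the median (permutation p = 1e-05). For Bdnf the sign without covariates was the other, with r = 0.211 and rho = 0.286 (permutation p = 0.00082 and 3e-05, adjusted 0.00105 and 3.86e-05) and r = 0.189, 0.378 and -0.387 within batches. The Bdnf call for rRNA was lost with DESeq2 (-0.086, adjusted p = 0.217), with date of death (-0.089) and in males (-0.078), and the modelled sign turned in batches 1 (0.11) and 2 (0.074). Ntrk2 lost its call in males (-0.15) and turned sign in batch 3 (0.14).

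RNA integrity (RIN), from 8.4 to 9.7, also went with the genes in opposite directions. Its correlation with Bdnf was r = -0.382 and rho = -0.405, and r = -0.385 without the 2 farthest rats (permutation p = 1e-05, adjusted 1e-05), with -0.243, -0.462 and -0.552 within batches. With Ntrk2 it was r = 0.294 and rho = 0.405, and r = 0.339 without those rats (permutation p = 1e-05, adjusted 1e-05), with 0.302, 0.619 and 0.0436 within batches. Rats taken by the dissector of 80 rats had a mean Ntrk2 of 8.82 ± 0.34 log2 CPM and those by the dissector of 165 rats 8.24 ± 0.54, with median intergenic shares of 14.5 and 12.3%. Bdnf was 6.24 ± 0.25 and 6.24 ± 0.24 in the same rats.

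The receptors, convertases and signaling genes were also related to the intergenic share. All 4 receptors rose with it (median 0.18 log2 per percentage point, beside -0.00064 over all genes), among them Ntrk3 (0.21 ± 0.014). These counts stand beside the 38.9% of all genes called higher and 38.4% called lower. Furin (0.20 ± 0.012), Pcsk5 and Pcsk6 rose and Pcsk1 fell (-0.063 ± 0.017). Of the 9 signaling genes 7 rose, among them the kinase gene Rps6ka2 (0.30 ± 0.017), and Hras (-0.098 ± 0.0081) and Rps6kb2 (-0.22 ± 0.021) fell. All 7 activity-regulated genes rose (median 0.070), opposite to Bdnf.

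Of the marker genes, which stand beside the same 77.3% of all genes called, all 3 excitatory neuron markers rose with the intergenic share (Slc17a7 0.18 ± 0.010, Rbfox3 0.24 ± 0.0099, Map6 0.13 ± 0.0097). Of 6 astrocyte markers, 4 rose, among them the water channel gene Aqp4 (0.11 ± 0.011), and the glutamate transporter gene Slc1a3 fell (-0.12 ± 0.010). Of 4 oligodendrocyte markers 3 rose and 1 fell. Of 3 microglia markers 1 rose and 2 fell, both endothelial and mural markers rose, and the 4 blood markers, the interneuron marker Vip and the choroid plexus marker Folr1 fell.

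Summed marker levels were compared with the member genes directly, without covariates and over 16 relations. Ntrk2 correlated with the excitatory neuron sum at r = 0.911 and rho = 0.919 (permutation p = 1e-05, adjusted 1e-05), with r = 0.911 without the 2 farthest rats and 0.912, 0.968 and 0.831 within batches. With the microglia sum it was r = -0.90 and rho = -0.907 (permutation p = 1e-05), r = -0.898 without the 2 farthest rats, and -0.891, -0.945 and -0.806 within batches. Of the excitatory neuron genes, Slc17a7, Rbfox3 and Map6 were at r = 0.905, 0.927 and 0.901 with Ntrk2. With covariates removed they were at 0.473, 0.513 and 0.551. Of the microglia genes, Coro1a (r = -0.893) and Tyrobp (-0.853) ran against Ntrk2, and Cd37 (0.413) ran with it. With covariates removed these were at -0.535, -0.183 and -0.129, so the sign for Cd37 turned. With the astrocyte sum Ntrk2 was at r = -0.078 and rho = -0.0687 (permutation p = 0.224 and 0.283), but single astrocyte genes went both ways. Aqp4 (r = 0.902), Gldc (0.814) and Gfap (0.619) ran with Ntrk2. Slc1a3 (-0.838), Ttyh1 (-0.218) and Slc7a10 (-0.157) ran against it. With covariates removed, Aqp4, Gldc and Gfap were at 0.651, 0.449 and 0.246. Slc1a3, Ttyh1 and Slc7a10 were then at -0.261, -0.00958 and -0.0231. Bdnf correlated with the microglia sum at r = 0.466 and rho = 0.470 (permutation p = 1e-05), with 0.443, 0.550 and 0.138 within batches. This sum was mostly Coro1a, with a mean of 157.2 CPM beside 11.3 for Tyrobp and 2.94 for Cd37. The r of Bdnf was 0.496 with Coro1a, 0.259 with Tyrobp and -0.279 with Cd37. With covariates removed it was 0.612, -0.00987 and -0.131, so only Coro1a kept a positive r. With the oligodendrocyte sum Bdnf was at r = -0.44 and rho = -0.425 (permutation p = 1e-05), r = -0.434 without the 2 farthest rats, and -0.449, -0.378 and -0.448 within batches. With the excitatory neuron sum Bdnf was at r = -0.194 and rho = -0.232 (permutation p = 0.00213 and 0.00034, adjusted 0.00284 and 0.000453), r = -0.207 without the 2 farthest rats, and -0.098, -0.404 and 0.332 within batches. The sums rest on 1 to 6 genes each and share the libraries with the member genes, and their part in the relation with RNA composition was not tested.

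Over rats, ligand and receptor varied in opposite directions. With covariates removed, Bdnf and Ntrk2 correlated at Pearson's r = -0.328 and Spearman's rho = -0.325 (245 rats, permutation p = 1e-05 for each, adjusted 2.25e-05 over 9 versions of this relation). The r was -0.364 in males and -0.288 in females, -0.329, -0.27 and -0.401 in batches 1, 2 and 3, and -0.334 without the 2 rats farthest from the median Bdnf. It was -0.336 with family removed as well and -0.345 with no covariate removed. The relation kept its sign and had a permutation p under 0.05 in all 9 versions. With no covariate removed, r within batches 1, 2 and 3 was -0.314, -0.448 and -0.0691, values that were not tested. Among 13749 genes with a mean of at least 1 CPM, 92.2% had a higher r with Bdnf than Ntrk2 did. With Ntrk2, 82.8% had a higher r than Bdnf did. The middle 95% of r ran from -0.407 to 0.471 for Bdnf and from -0.579 to 0.831 for Ntrk2. The value of -0.328 lay inside both ranges, so it was not unusual among all genes.

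**Figure D4:**
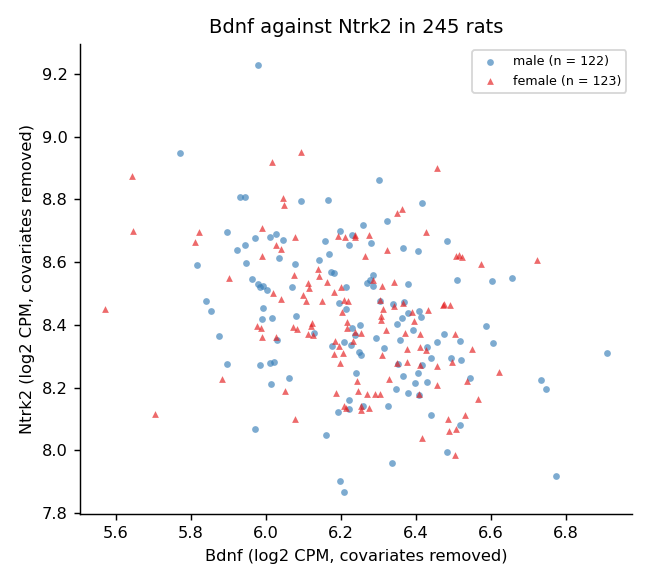
Ntrk2 against Bdnf in log2 CPM with covariates removed, each point a rat, males as circles and females as triangles. The cloud slopes downward in both sexes (r = -0.364 in males and -0.288 in females).

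The genes most alike in pattern were found as those with the highest r over the 245 rats with covariates removed. For Bdnf the 3 highest values were 0.734, 0.678 and 0.673, led by ENSRNOG00000051816 and ENSRNOG00000006324, and 220 genes had an r over 0.5. For Ntrk2 they were 0.928, 0.926 and 0.926, led by ENSRNOG00000029510 and ENSRNOG00000006952, and 2834 genes had an r over 0.5. No symbol was paired with these identifiers in the sources used here. Ntrk2 thus shared its pattern with many more genes than Bdnf did.

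Both genes differed between families in the model of all rats. The moderated F over 12 families was 4.92 for Bdnf (limma-voom adjusted p = 1.10e-05) and 3.68 for Ntrk2 (limma-voom adjusted p = 0.000418), beside a median F of 2.01 over all genes and 56.3% of genes called (55.1% with an unadjusted p under 0.05). By p-value Bdnf ranked 1338 and Ntrk2 3567 of 19448.

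With covariates removed, the family means of Bdnf ran from 6.07 ± 0.20 log2 CPM (SD, n = 21) in family 7 to 6.44 ± 0.23 (n = 22) in family 3, a 1.30-fold range. Family 6 (6.12 ± 0.18, n = 19) was next above the lowest, followed by family 4 (6.18), family 5 (6.19), family 10 (6.21), family 11 (6.24), family 12 (6.25), family 1 (6.27), family 9 (6.28), family 2 (6.29) and family 8 (6.30). The largest step between neighbors, 0.14 between families 8 and 3, was below the SD within either of them (0.16 and 0.23), and every other pair of neighbors lay closer. The family means of Ntrk2 ran from 8.24 ± 0.20 (n = 17) in family 1 to 8.54 ± 0.22 (n = 15) in family 10, a 1.24-fold range. Family 3 (8.35) followed family 1, with the largest step of 0.11, and families 12 (8.53) and 7 (8.53) stood next to the highest. None of the Ntrk2 steps between neighbors exceeded the smallest SD within a family.

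**Figure D5:**
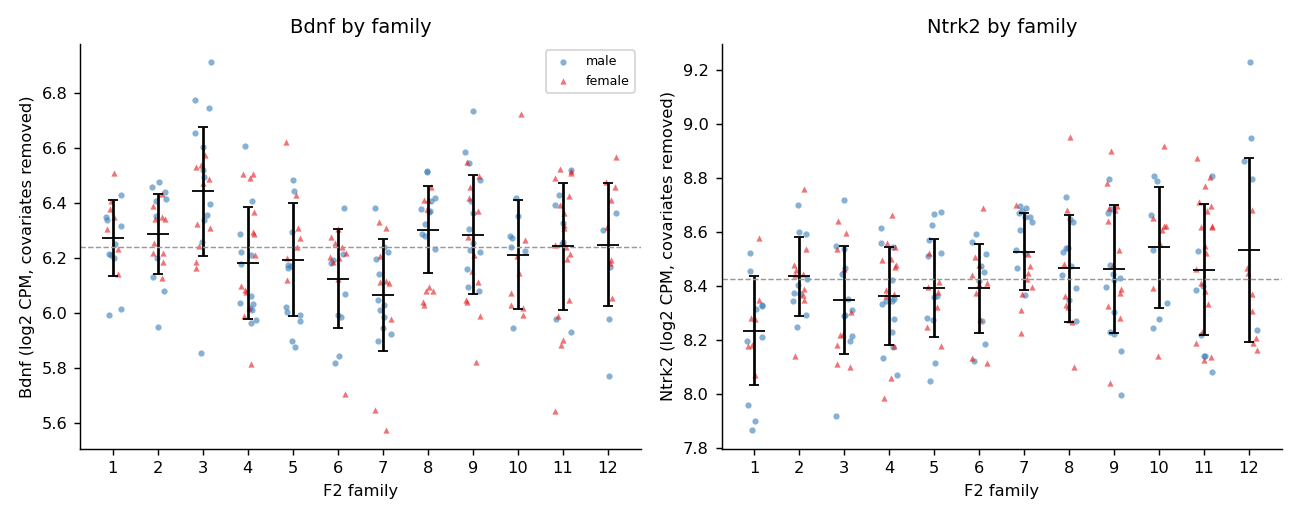
Bdnf (left) and Ntrk2 (right) in log2 CPM with covariates removed, by F2 family, with males as circles, females as triangles, and the family mean and SD in black. The dashed line is the mean of all rats. Family 3 is highest (6.44) and family 7 lowest (6.07) for Bdnf, and family 1 lowest (8.24) for Ntrk2.

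Males and females of a family are separate animals, so their means were compared over the 12 families. For Bdnf they correlated at r = 0.448 and rho = 0.399 (permutation p = 0.146 and 0.203, adjusted 0.292 and 0.344 over 2 relations), and r was 0.129 without the 2 families farthest from the median. For Ntrk2 they correlated at r = 0.157 and rho = 0.301 (permutation p = 0.631 and 0.344), with r = 0.241 without those families. The relation was not detectable with 12 families, which had too few rats of each sex per batch for within-batch values. Family 3 had the highest Bdnf mean in both sexes (6.49 in males and 6.38 in females). In family 12 the sexes stood apart for Ntrk2, at 8.81 in 5 males and 8.35 in 8 females. Of those males, 3 were the untrained rats of the shared male date, all in batch 3, at 8.80, 8.95 and 9.23. Sex, date and training cannot be told apart in them. The family call was made in males alone for both genes (F of 5.23 and 4.12) and not in females alone (F of 1.82 and 1.62, limma-voom adjusted p = 0.23 and 0.304), and whether the sexes differ in it was not tested. Without the rRNA and intergenic shares in the model, the F of Ntrk2 was 0.873 (limma-voom adjusted p = 0.666), and that of Bdnf 4.51. With sex as the only covariate the F of Ntrk2 was 1.6, and within batches 1, 2 and 3 it was 1.27, 1.82 and 1.21, none of them called. Bdnf was called in batches 1 and 2 and not in batch 3 (F of 2.39, limma-voom adjusted p = 0.388).

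Of the pathway lists, all 4 receptors, 3 of 4 convertases, 7 of 9 signaling genes and 2 of 7 activity-regulated genes differed between families, beside 56.3% of all genes. Rps6ka2 (F of 5.75) and Hras (5.39) were the highest among the signaling genes, and Pcsk5 (4.12) among the convertases.

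Sex and hippocampal side made no called difference to either gene. In males the lowest, median and highest log2 CPM of Bdnf were 5.66, 6.27 and 6.93, and in females 5.66, 6.21 and 6.84. Females minus males was -0.019 ± 0.029 for Bdnf (limma-voom adjusted p = 0.80) and -0.019 ± 0.029 for Ntrk2 (limma-voom adjusted p = 0.795), with 95% intervals of -0.075 to 0.038 and -0.076 to 0.038, where 9.08% of genes were called, 4.04% higher and 5.04% lower in females. Among the relatives of Ntrk2, Sorcs3 was lower in females (-0.075 ± 0.023), and so was the signaling gene Mapk3 (-0.050 ± 0.016). The 4 blood markers were lower in females as well (median -0.53), as were Slc17a7 (-0.084 ± 0.021), Rbfox3 (-0.10 ± 0.020) and the astrocyte genes Gfap (-0.15 ± 0.024), Aqp4 (-0.12 ± 0.022) and Ttyh1 (-0.045 ± 0.016) and the endothelial gene Slco2b1 (-0.066 ± 0.018). The interneuron marker Vip was higher in females (0.11 ± 0.038). The part of these markers was not tested. All males were killed in the week before the females, so sex and date of death cannot be told apart. The study also housed the sexes in separate rooms on different light cycles and tested males first, which cannot be told apart from sex either.

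Right minus left was 0.0031 ± 0.028 for Bdnf (p = 0.912, limma-voom adjusted p = 0.991). For Ntrk2 the lowest, median and highest levels were 6.98, 8.46 and 9.49 on the left and 7.29, 8.34 and 9.37 on the right, and right minus left was -0.053 ± 0.028 (p = 0.0576, limma-voom adjusted p = 0.904). Since 0% of genes were called for side at the FDR and 1048 had an unadjusted p under 0.05, the Ntrk2 value was not separable from the background. Each rat gave only 1 side, so the sides were compared between animals.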

How the data were processed

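The deposited file holds raw counts per Ensembl gene, which the authors made from polyA libraries sequenced on a NovaSeq. Per the submitters' processing notes and the study's methods, reads were aligned to Rnor6 with STAR 2.7.3a and counted with Subread 2.0.0 on Ensembl 103 models, without separating isoforms. The damaged intergenic label was recomputed as 100 minus the mRNA, intronic and rRNA percentages. Batches were taken from breaks in the library numbers, and PavCA experience from any recorded score. The 5 libraries with a failed-quality label were left out, 1 rat with an EPM distance over 5000 cm was dropped from that fit, and 0 columns lacked a sample.

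The 19448 genes in which 25% of the rats or more had 1 read were normalized by TMM and fitted with limma-voom (limma 3.58.1, edgeR 4.0.16, R 4.3.3), with Benjamini-Hochberg adjustment over all genes at an FDR of 0.10. Levels are log2 CPM with an offset of 0.5 reads. The behavior models held sex, rRNA share, intergenic share, dissector, PavCA experience (not for PavCA Index) and batch. Training, sex and the RNA shares were read from the LocoScore model, and side or family was added to it. Alternatives used DESeq2 1.42.0, edgeR's quasi-likelihood test, limma-trend, other filters, covariates and subsets. The model code was tested on simulated counts. Correlations had 100000 two-sided permutations. Bdnf and Ntrk2 were named in every comparison. Listed genes were named where past the FDR, at most 4 by smallest p, and others were chosen after their values were seen. The members and lists were chosen with earlier results of these data known. Symbols came from the study's tables, which cover part of each list (4 of 8 receptors, 4 of 8 convertases, 9 of 38 signaling genes and 7 of 20 activity-regulated genes). Promoters are from RefSeq on GRCr8, and no coordinates were mixed with Rnor6.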

Additional observations from a re-analysis of the deposited data

How the results depend on the processing

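No paired analysis was possible because replicate numbers only follow accession order within a sex and pair no animals. With family as a block the Bdnf training call was kept (-0.13). Over 524 recomputed values for 23 results, 421 kept direction and call, 31 kept direction and lost the call, 72 changed sign and 0 gained a call. The cause was not tested for any of them. Age at death, leaving out rats or families, the product of sex and training, and the 3 rats with a day 6 score only were alternatives chosen after seeing the data.

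The rise of Ntrk2 with the intergenic share stayed called in all 16 alternatives (0.21 to 0.32 log2 per point). The fall of Bdnf with the share lost its call in batch 1 (-0.027) and kept it in 15. The correlation of the genes ran from -0.40 to -0.27. For training, the Bdnf difference lost its call with DESeq2 size factors (-0.13), date of death (-0.063), dissection day (-0.13), females (-0.17), males (-0.12), batch 2 (-0.10), shared dates (-0.082), rats without a PavCA Index counted as untrained (-0.11), without the RNA shares (-0.15), and without families 1 (-0.12), 4 (-0.12), 6 (-0.13), 8 (-0.14), 9 (-0.12) or 10 (-0.14), and changed sign in batch 1 (0.27). Leaving out each untrained rat gave -0.18 to -0.13 for Bdnf and -0.00044 to 0.040 for Ntrk2. Bdnf lost its rRNA call with DESeq2 size factors (-0.087), DESeq2 (-0.086), date of death (-0.089) and males (-0.078), and Ntrk2 with males (-0.15). The sign changed for Bdnf in batches 1 (0.11) and 2 (0.074) and for Ntrk2 in batch 3 (0.14). The family F lost its call in females (Bdnf 1.82, Ntrk2 1.62) and batch 3 (2.39 and 1.21), and for Ntrk2 in batches 1 (1.27) and 2 (1.82), with sex as the only covariate (1.6) and without the RNA shares (0.873). Leaving out 1 family gave 3.01 to 5.33 for Bdnf and 2.16 to 4.34 for Ntrk2.

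The other sign changes were in values never called. For Ntrk2 and training they were -0.12 (date of death), -0.18 (males), -0.026, -0.12 and -0.072 (batches 1 to 3), -0.10 (shared dates), and -0.0054, -0.012 and -0.017 (without families 7, 8 and 10). LocoScore slopes changed for Bdnf to -0.00079 (family), -0.0034 (females), -0.00048 and -0.0054 (batches 2 and 3), and for Ntrk2 to -0.0021 (dissection day), -0.0089 (males), -0.0077 (sex only) and -0.0062 (no RNA shares). EPM distance changed for Bdnf to 0.0019 (batch 3) and for Ntrk2 to 0.00016 (all libraries), 0.00078 (family), 0.00011 (females), 0.00010 (males), 0.0041 and 0.0038 (batches 1 and 3). Immobility changed for Bdnf to 0.00067 (family), 0.018 (females), 0.00091 (ranks), 0.012 and 0.0080 (batches 1 and 3), 0.0050 (sex only) and 0.00031 (age), and for Ntrk2 to 0.0042 (batch 2), 0.0030 (sex only) and 0.00012 (no RNA shares). Open arm time changed for Bdnf to 0.00078 (all libraries), 0.00030 (1 CPM filter), 0.00075 (date of death), 0.017 (females), 0.00044 (no filter), 0.014 (batch 2), 0.00060 (sex only) and 0.0019 (no RNA shares), and for Ntrk2 to 0.00036 (DESeq2), 0.0026 (all libraries), 0.0010 (1 CPM filter), 0.0015 (edgeR), 0.0096 (family), 0.0040 (males), 0.00075 (ranks), 0.030 and 0.014 (batches 1 and 3) and 0.00062 (age). PavCA Index changed for Bdnf to -0.00065 (family) and -0.032 (females), and for Ntrk2 to -0.00097 (dissection day), -0.014 (males), -0.014 (sex only) and -0.030 (no RNA shares). Sex changed for Bdnf to 0.043 and 0.082 (batches 2 and 3) and for Ntrk2 to 0.037 and 0.025 (batches 1 and 3) and 0.050 (no RNA shares). Side changed for Bdnf to -0.00057 (date of death), -0.0019 (males), -0.034 (batch 2) and -0.00080 (age).

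Depth limited neither gene, since the lowest count in a library was 963. The tests rest on 37 untrained rats, on labels that tie training to date of death, and on gene names that no table in the sources used here pairs with the identifiers.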
